A study of Homo sapiens with 6 samples.

Results

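The 9 genes described here are type I MAGE cancer-testis antigen genes, namely MAGEA1, MAGEA3, MAGEA4, MAGEA6, MAGEA10, MAGEA12, MAGEB2, MAGEC1 and MAGEC2, out of 23228 genes in the read tables. They were chosen by name and on their reads in these same libraries, scaled to library size, with control set against PELP1-KD. Their differences between the groups are therefore given as a description, without a test. Of the 9 genes, 4 had reads (MAGEA3, MAGEA6, MAGEA12 and MAGEB2) and the same 4 passed the filter on low counts, while 5 had 0 reads in all 6 libraries.

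The libraries came from Hep3B, an established human hepatocellular carcinoma cell line grown in RPMI medium, and RNA was sequenced in 3 control and 3 PELP1-KD libraries. Control cells carried a lentiviral non-targeting shRNA, a short hairpin RNA without a human target. PELP1-KD cells carried lentiviral shRNA against PELP1, a coregulator of nuclear receptors that also takes part in ribosome assembly. The titles of the libraries name the first PELP1 shRNA and the protocol in the labels names both, so which one was used is not certain. By the labels, stable PELP1-KD clones selected with puromycin were pooled, and nothing there says that the libraries of a group were separate cultures. The p-values below measure the spread between these libraries.

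MAGE proteins share a MAGE homology domain, with which many of them bind E3 ubiquitin ligases of the RING type and change what those ligases act on. Type I genes (the MAGEA, MAGEB and MAGEC groups) lie on the X chromosome, are active in the male germ line, are silent in most other adult tissues and are switched on again in many tumors, where peptides of MAGEA1 and MAGEA3 were among the earliest known T cell targets. Their promoters are kept silent by methylation of CpG dinucleotides in normal somatic cells. Type II genes (MAGED, MAGEE, MAGEF and related genes) are active in many tissues.

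The stretch just upstream of a gene is where this methylation acts, so the 250 bases before the start of 4 genes are shown, with each CpG in capitals. They are MAGEA3 (chrX:151938241-151938490, minus strand) and MAGEA12 (chrX:151903185-151903434, minus strand), whose reads were almost all in control libraries, and MAGEB2 (chrX:30233425-30233674, plus strand) and the type I gene MAGEA8 (chrX:149009691-149009940, plus strand, not 1 of the 9), whose reads were higher in PELP1-KD libraries. The sequences are from GRCh37, the build of the files (hg19), and are written 5' to 3' on the strand of the gene.
MAGEA3: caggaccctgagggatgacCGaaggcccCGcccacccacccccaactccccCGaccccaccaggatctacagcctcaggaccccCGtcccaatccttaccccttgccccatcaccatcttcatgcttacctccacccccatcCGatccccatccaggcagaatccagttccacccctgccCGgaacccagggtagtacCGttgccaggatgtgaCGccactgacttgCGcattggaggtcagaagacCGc
MAGEA12: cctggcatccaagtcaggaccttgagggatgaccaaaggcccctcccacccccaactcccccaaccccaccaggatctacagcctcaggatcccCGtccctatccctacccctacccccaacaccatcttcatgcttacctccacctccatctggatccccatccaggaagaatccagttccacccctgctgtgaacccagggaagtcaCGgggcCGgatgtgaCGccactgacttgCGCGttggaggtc
MAGEB2: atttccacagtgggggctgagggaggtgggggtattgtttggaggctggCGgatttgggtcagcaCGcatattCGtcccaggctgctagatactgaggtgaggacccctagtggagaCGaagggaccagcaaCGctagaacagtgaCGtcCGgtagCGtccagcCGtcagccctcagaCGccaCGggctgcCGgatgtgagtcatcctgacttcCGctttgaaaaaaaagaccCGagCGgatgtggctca
MAGEA8: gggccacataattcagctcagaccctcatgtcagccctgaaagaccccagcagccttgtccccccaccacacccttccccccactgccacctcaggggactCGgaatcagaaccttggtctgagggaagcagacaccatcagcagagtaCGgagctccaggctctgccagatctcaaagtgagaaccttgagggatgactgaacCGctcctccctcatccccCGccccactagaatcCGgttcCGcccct
These windows held 10 CpG for MAGEA3, 6 for MAGEA12, 15 for MAGEB2 and 6 for MAGEA8. Over 22675 windows of the same length, 1 per gene, the median was 14 CpG, with quartiles of 4 and 24. MAGEA6 had 12, MAGEA10 had 11, MAGEA1 had 10, MAGEC1 had 8, MAGEA4 had 7 and MAGEC2 had 6. The genes with reads and those at 0 thus overlapped in CpG number. The window of MAGEA6 (chrX:151866995-151867244, plus strand) matched that of MAGEA3 in 100% of 235 aligned columns, and MAGEA12 matched MAGEA3 in 88.4% of 241. The best local match of MAGEA1 with MAGEA3 ran over 202 columns with 66.3% identity, and that of MAGEA8 with MAGEA3 over only 66 columns.

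A stretch close to the start was shared more widely. The 8 letters GGATGTGA, read on both strands and picked after the sequences had been seen, were in the windows of 7 of the 9 genes and in 188 of the 22675 windows (0.829%). The windows of MAGEC1, MAGEC2 and MAGEA8 did not have them, and those of MAGEC1 and MAGEC2 did not when extended by 10 bases past the start, where the windows end. Among other type I genes, MAGEA5 and MAGEB16 also had them, and both had 0 reads in every library. MAGEA11, MAGEB1, MAGEB3, MAGEB4, MAGEB6, MAGEB10, MAGEB18 and MAGEC3 did not have them. The rows of MAGEA2, MAGEA2B, MAGEA9 and MAGEA9B cover copies on both strands, so they had no window and were not searched. The stretch is thus not particular to the 9 genes. The 30 bases around this stretch are shown for those 7 genes, with the 8 letters in capitals.
MAGEA3: cgttgccaGGATGTGAcgccactgacttgc
MAGEA6: cgttgccaGGATGTGAcgccactgacttgc
MAGEA12: acggggccGGATGTGAcgccactgacttgc
MAGEB2: gggctgccGGATGTGAgtcatcctgacttc
MAGEA1: gggtgcccGGATGTGAcgccactgacttgc
MAGEA4: agctgcccGGATGTGAtgccactgacttgc
MAGEA10: cggggaccGGATGTGAcgccactaacttac
In the window of MAGEA3 it began 44 bases before the start of the gene, in MAGEA12 34 bases before it, and in MAGEB2 58 bases before it. Genes with 0 reads (MAGEA1, MAGEA4 and MAGEA10) and genes with reads held the same 8 letters, as did MAGEB2, whose scaled reads differed in the opposite direction to those of MAGEA3. One form of the site of ETS factors, CGGAAG, was searched on both strands. It was in 17.3% of all windows and in that of MAGEB2 alone among the 9. The longer CCGGAAGT, which contains it, was in 3.44% of windows and in none of the 9. Other forms of the site, among them those with GGAT in place of GGAA, were not searched as such. The 8 letters above begin with GGAT, so an absence of ETS sites cannot be read from these counts. A match of letters is a description of the window only.

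Between 26758180 and 34456393 reads were assigned to genes per library, and 14537 genes were tested with edgeR. At an adjusted p below 0.05, PELP1-KD was higher for 3899 genes (26.8%) and lower for 3889 (26.8%). With a change of at least 2-fold as well, 415 (2.85%) were higher and 697 (4.79%) lower. The median log2 fold change of all tested genes was 0.004. PELP1, the targeted gene, had 5338, 5127 and 5348 control reads against 4318, 4135 and 4846 reads in PELP1-KD, which after scaling was 94.48% of control (log2 fold change -0.08, SE 0.04, adjusted p = 0.101, or 0.0106 in a fit blocked by replicate number). Its message thus stood close to the control level in the libraries labelled PELP1-KD. The study itself checked the knockdown on protein, and reported lower PELP1 in Hep3B knockdown cells by Western blot. Protein was not measured in these libraries. All 10 hepatocyte lineage markers had reads, with 28853 to 29293 RPM (reads per 1000000 reads, after TMM scaling) in control and 25430 to 25924 in PELP1-KD libraries. All 10 were tested, with 3 higher (AFP, FGB and HNF4A) and 7 lower, beside 26.8% of all tested genes in each direction. Their log2 fold changes ran from -0.61 (ALB and TTR) to 0.62 (AFP). The germ cell markers, of which 7 of 9 had any read, summed to 0.05834 to 0.2125 RPM in control and 0.06357 to 0.2228 in PELP1-KD, with PRM2 and ACRV1 at 0 and none tested. The fibroblast markers summed to 44.44 to 46.99 RPM in control and 58.8 to 59.82 in PELP1-KD (THY1 at 0). Of the 5 tested, 2 were higher (LUM and COL1A2) and 2 lower (PDGFRB and PDGFRA), beside 26.8% of all tested genes in each direction. Only PDGFRB changed by at least 2-fold. The leukocyte markers summed to 180.7 to 191.7 and 110.2 to 113.4, mostly LYZ and CD68, with PTPRC at 5 reads or fewer in every library. Of the 4 tested, 1 was higher and 2 lower, beside 26.8% of all tested genes in each direction. CD68 rose by 0.48 on the log2 scale, while LYZ fell by 1.55 and CD14 by 0.98. The endothelial markers summed to 3.035 to 3.721 and 3.008 to 3.453, with CDH5, KDR, TEK and EMCN at 0. The part of these in the MAGE values was not tested.

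MAGEA3, MAGEA6 and MAGEA12 were present at a low level in control cells, and none of them had more than 2 reads in any PELP1-KD library. MAGEA3 encodes an antigen of tumor vaccines that binds the ligase TRIM28. Its row (chrX:151934652-151938240, minus strand, 3 exons) held 66, 70 and 82 reads in control and 0, 0 and 0 in PELP1-KD. Every control library had reads and no PELP1-KD library had any, so the groups did not overlap. The 218 control reads stood against 0, and set against a floor of 3 reads over the PELP1-KD group MAGEA3 was at least 64.73-fold lower. The fitted log2 fold change of -9.11 (SE 0.61) depends on the prior count of the fit and is not a bound. In bulk RNA, fewer cells with the transcript and less transcript per cell cannot be told apart.

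MAGEA6 encodes a protein close to MAGEA3 that also binds TRIM28. Its row (chrX:151867245-151870814, plus strand, 3 exons) held 15, 17 and 22 reads in control libraries and 0, 2 and 2 in PELP1-KD libraries. The highest PELP1-KD library was below the lowest control library. Scaled to library size, control had 12.03 times the reads of PELP1-KD (95% exact interval 4.435 to 45.73, for counting error only), and the fitted log2 fold change was -3.48 (SE 0.59).

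MAGEA12, the third gene of the group (chrX:151899293-151903184, minus strand, 4 exons), held 25, 30 and 27 reads in control libraries and 2, 1 and 1 in PELP1-KD libraries. Again the groups did not overlap. Control had 18.26 times the reads of PELP1-KD (6.867 to 68.61), with a fitted log2 fold change of -4.08 (SE 0.48). Taken as 1 sum, MAGEA3, MAGEA6 and MAGEA12 had 354 control reads and 8 PELP1-KD reads, a ratio of 39.42 (19.79 to 92.02). Within control libraries the make-up of that sum was steady, with MAGEA3 at 59.83% to 62.6% of it.

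MAGEB2, an RNA-binding MAGE protein of the testis, behaved otherwise. Its row (chrX:30233675-30238206, plus strand, 2 exons) lies on the short arm of the X chromosome, far from the MAGEA genes. It held 2633, 2430 and 2236 reads in control libraries and 2647, 2314 and 2826 in PELP1-KD libraries. These raw reads overlapped between the groups, and the PELP1-KD libraries were smaller. After TMM scaling the means were 2292 ± 144 (SD, n = 3) in control and 2744 ± 68.08 (SD, n = 3) in PELP1-KD, and the groups no longer overlapped. The fitted log2 fold change was 0.26 (SE 0.05), so that PELP1-KD stood at 119.7% of control. Of the 4 genes with reads, 3 were thus lower and 1 higher without overlap of the scaled reads, against 29.3% of all tested genes lower and 29.5% higher without overlap. Since these genes were selected on this very comparison, nothing is read from those counts.

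**Figure D1:**
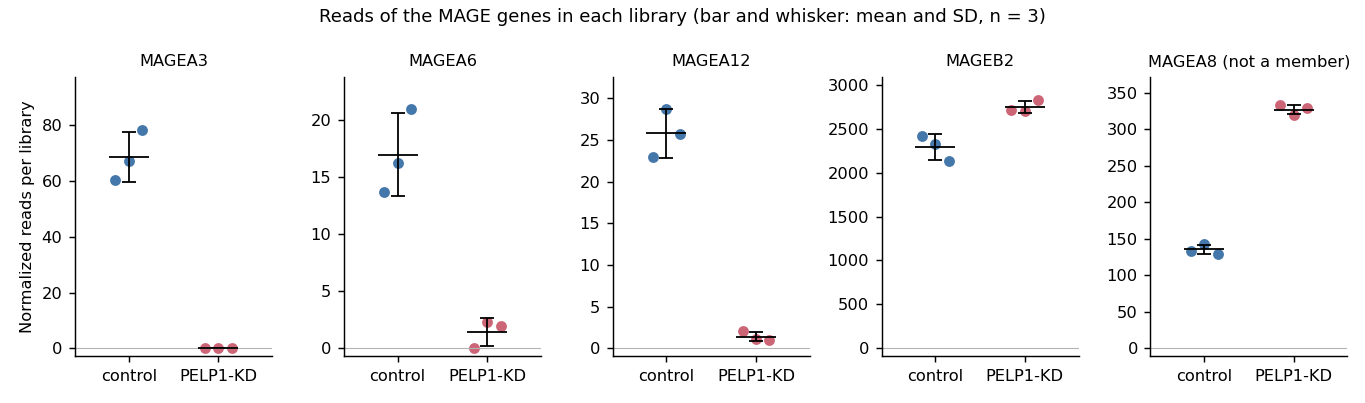
TMM-normalized reads per library (y axis, linear from 0, a separate scale in each panel) of the 4 MAGE genes with reads and of MAGEA8 in 3 control (blue) and 3 PELP1-KD (red) libraries. Points are libraries, and black marks are the mean and SD. MAGEA3, MAGEA6 and MAGEA12 sat at 0 to 2 raw reads in every PELP1-KD library, while MAGEB2 and MAGEA8 were higher there.

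The remaining 5 genes were at 0 in every library. They are MAGEA1 (chrX:152481522-152486116), whose product was the earliest human tumor antigen defined with T cells, MAGEA4 (chrX:151081361-151093642), a target of T cell therapies, MAGEA10 (chrX:151302907-151307025), and MAGEC1 (chrX:140991642-140997187) and MAGEC2 (chrX:141290128-141293076), tumor antigens that also lie on the long arm of the X chromosome. A count of 0 over all 6 libraries allows up to 3 reads, or 0.01586 RPM. Per length this came to at most 0.003671 RPKM (RPM per kilobase of exon) for MAGEC1, the longest, and at most 0.009952 for MAGEA10. Any level below these values was not detectable at this depth, in control as in PELP1-KD cells, so no change of these 5 genes could be seen.

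Levels can be set side by side only per length. On the RPKM scale MAGEB2 came highest by far in control cells, at 47.65, 45.98 and 42.11, and it held 94.47% to 96.13% of all reads of the 9 genes. MAGEA3 came next at 1.117, 1.238 and 1.444 RPKM. MAGEA12 had 0.3753, 0.4709 and 0.4218, and MAGEA6 had 0.2483, 0.2943 and 0.379. MAGEA12 was above MAGEA6 within each control library, although the highest MAGEA6 value lay above the lowest MAGEA12 value of another library. Their difference was not tested. In PELP1-KD cells MAGEB2 was at 53.49, 53.3 and 55.72 RPKM, MAGEA6 at 0, 0.04215 and 0.03608, MAGEA12 at 0.03353, 0.01911 and 0.01636, and MAGEA3 was listed at 0. There MAGEB2 made up 99.87% to 99.92% of the reads. The sum over all 9 genes accordingly followed MAGEB2, at 2511, 2441 and 2258 normalized reads in control and 2712, 2704 and 2826 in PELP1-KD, a log2 ratio of 0.19 that became -5.29 without MAGEB2.

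**Figure D2:**
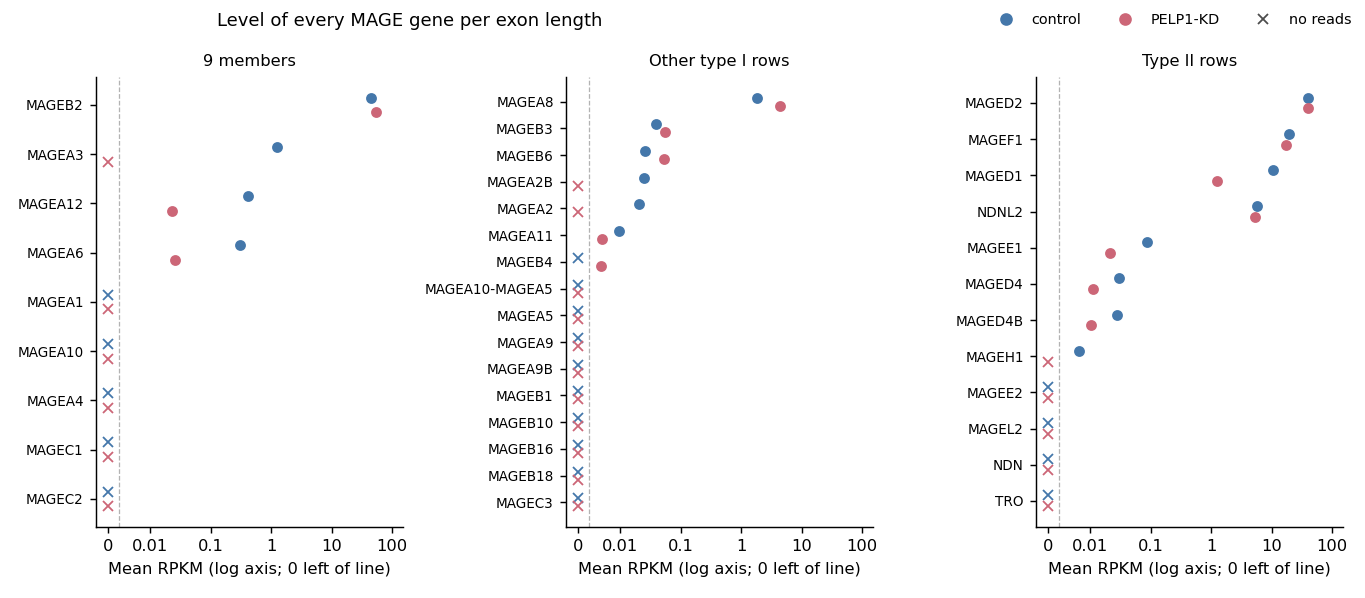
Mean level of each MAGE gene per exon length in RPKM (x axis, log scale, genes with no reads set left of the dashed line) in control (blue) and PELP1-KD (red) libraries, in 3 panels for the 9 genes, the other type I genes and the type II genes. MAGEB2, at 45.24 RPKM in control, lies next to the type II gene MAGED2 at 40.59, and MAGEA3, MAGEA12 and MAGEA6 lie between 0.3072 and 1.266 in control.

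MAGEA3 and MAGEA6 are near-identical copies whose starts lie 70995 bases apart on opposite strands, so their reads cannot always be assigned. Of the 50-base windows in the exons of MAGEA3, 884 of 1577 (56.1%) occurred again on the X chromosome, 856 of them in MAGEA6. For MAGEA6 it was 964 of 1615 (59.7%), 879 of them in MAGEA3, and for MAGEA12 216 of 1747 (12.4%). No window of MAGEB2 or MAGEA1 recurred. All 18 values of MAGEA3, MAGEA6 and MAGEA12 in the tables were whole numbers, although the counting split a read with several places into fractions, so no fraction shows in them. How reads that match both copies were placed cannot be seen in the tables. Set against windows found once only, the control libraries together had 314.6 reads per 1000 such windows for MAGEA3, 82.95 for MAGEA6 and 53.56 for MAGEA12. On this scale MAGEA6 came above MAGEA12, while on the RPKM scale it came below, so their order depends on the scale. MAGEA3 stayed above both. MAGEA6 took 18.52% to 21.15% of the reads of the pair in control libraries. Both copies summed to 272 control and 4 PELP1-KD reads, a ratio of 60.57 (23.39 to 223.9) in which a read assigned to the wrong copy has no effect.

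**Figure D3:**
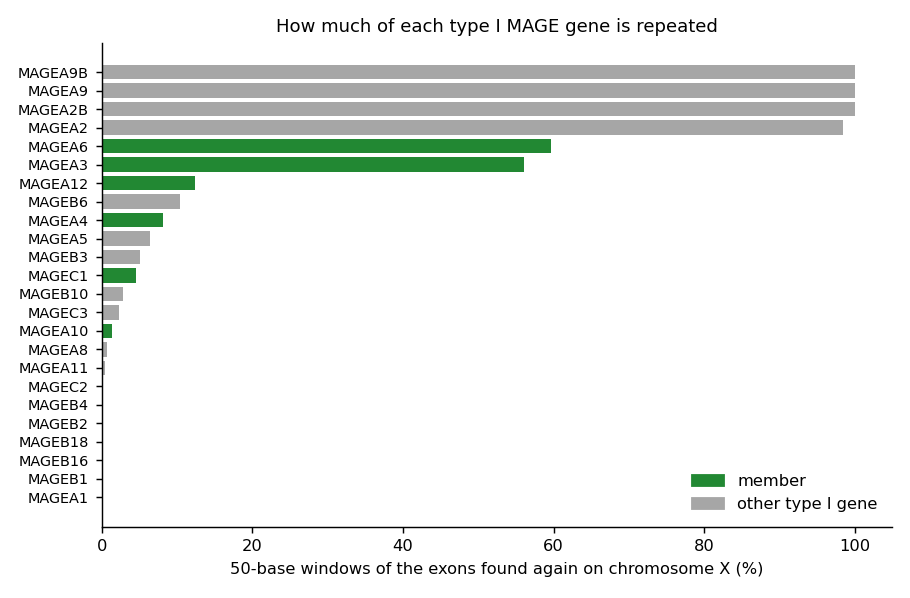
Share of the 50-base windows in the exons of each type I MAGE gene that occur again on chromosome X (x axis, percent), with the 9 genes in green and the others in grey. MAGEA6 and MAGEA3 stand at 59.7% and 56.1%, and MAGEB2 and MAGEA1 at 0.

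Apart from MAGEA12, the genes that lie between these copies had few reads, all in control libraries. The MAGEA2 row, which covers a gene present as inverted copies, had 0, 8 and 1 reads in control and 0 in each PELP1-KD library, so it rested mostly on 1 library. MAGEA2B, its overlapping partner, had 0, 7 and 1 against 0. Nearly all windows of both recur (98.4% and 100%), and their reads are uncertain. CSAG1 (chrX:151903228-151909518), a cancer-testis gene of another family that starts 44 bases from the start of MAGEA12 and runs the opposite way, had 6.5, 9.5 and 7 reads in control and 0 in PELP1-KD, at least 6.829-fold lower against a floor of 3 reads over the group. CSAG2 and CSAG3, whose rows span the same bases, together had 14 reads in control and 0 in PELP1-KD (at least 4.157-fold lower). All of these were under the filter on low counts and were not tested. The window upstream of CSAG1 held GGATGTGA on its reverse strand, in the stretch it shares with the window of MAGEA12.

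Of the 16 other type I rows, 7 had reads and MAGEA8 alone was tested. MAGEA8 (chrX:149009941-149014609, plus strand), a member of the MAGEA group of the same chromosome arm, had 146, 149 and 136 reads in control and 325, 274 and 329 in PELP1-KD. It rose by 1.27 on the log2 scale (SE 0.09, adjusted p = 5.62e-10), from 1.824 ± 0.09005 to 4.404 ± 0.08957 RPKM (SD, n = 3). It was thus higher in every PELP1-KD library, the opposite of MAGEA3, MAGEA6 and MAGEA12. On the RPKM scale MAGEA8 was above MAGEA3 in every control library. Per 1000 windows found once only, the control libraries together had 200.2 reads for MAGEA8 and 314.6 for MAGEA3. The order of MAGEA8 and MAGEA3 in control thus depends on the scale. MAGEB3, which lies next to MAGEB2, had 9 reads in control and 11 in PELP1-KD, and MAGEB6 had 5 and 9. The intervals of their ratios (0.267 to 1.935 and 0.1303 to 1.644) include 1, so no difference was detectable at this depth.

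Of the 12 type II rows, 8 had reads and 4 were tested, of which 0 were higher and 2 lower, against 26.8% of all tested genes in each direction. The median log2 fold change of the 4 was -0.12. MAGED1, an adaptor of neurotrophin receptor signaling that is also called NRAGE, had 1047, 1014 and 1023 reads in control and 111, 113 and 100 in PELP1-KD. It fell to 11.88% of control (log2 fold change -3.08, SE 0.09, adjusted p = 2.1e-16), and unlike MAGEA3 it went from 10.38 ± 0.08963 to 1.233 ± 0.1718 RPKM, well above the floor. MAGEF1, which directs the breakdown of an iron-sulfur assembly factor, had a log2 fold change of -0.16 (SE 0.05, adjusted p = 0.0166), a call lost without control replicate 1 or control replicate 3 (the highest adjusted p was 0.0752). MAGED2, needed for salt transport in the fetal kidney, was at 40.59 and 40.3 RPKM (log2 fold change -0.01, SE 0.04, adjusted p = 0.849), and NDNL2, the MAGE subunit of the SMC5/6 complex, at 5.664 and 5.368 (-0.08, SE 0.09, adjusted p = 0.483). MAGEE1 was under the filter, with 7, 12 and 13 reads in control and 0, 3 and 4 in PELP1-KD, a ratio of 4.072 (1.766 to 10.93). The imprinted genes MAGEL2 and NDN of chromosome 15 were at 0.

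The other cancer-testis families of the X chromosome (among them GAGE, XAGE, SSX, SPANX, CT45 and CT47) were hardly present, with 78 of 97 rows at 0 in every library. The 1 tested row, CXorf61, had 17, 13 and 16 reads in control and 11, 11 and 18 in PELP1-KD (log2 fold change -0.04, SE 0.34, adjusted p = 0.938), so 0 were called with edgeR, and none at an unadjusted p below 0.05. DESeq2, which tested more rows, called 1, namely CSAG1, lower. Of 30 other cancer-testis and germ line genes, all but FMR1NB on autosomes, 9 were tested, 4 were higher and 2 lower, beside 26.8% of all tested genes in each direction, with a median of 0.23. Of the 4 higher calls, that of TPTE (log2 fold change 0.27, adjusted p = 0.0458), was lost with DESeq2 (0.181). PRAME, a tumor antigen, rose by 0.35 (SE 0.04, adjusted p = 1.24e-06), BRDT, a bromodomain protein of spermatocytes, by 0.41 (SE 0.05, adjusted p = 3.11e-06) and DDX43, a helicase, by 0.61 (SE 0.10, adjusted p = 3.58e-05). TEX15, needed in meiosis, fell by 0.76 (SE 0.08, adjusted p = 9.88e-08), and the kinase TTK by 0.28 (SE 0.06, adjusted p = 0.000992). None of these 9 changed by 2-fold, a call made for 2.85% of all tested genes in the higher and 4.79% in the lower direction.

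**Figure D4:**
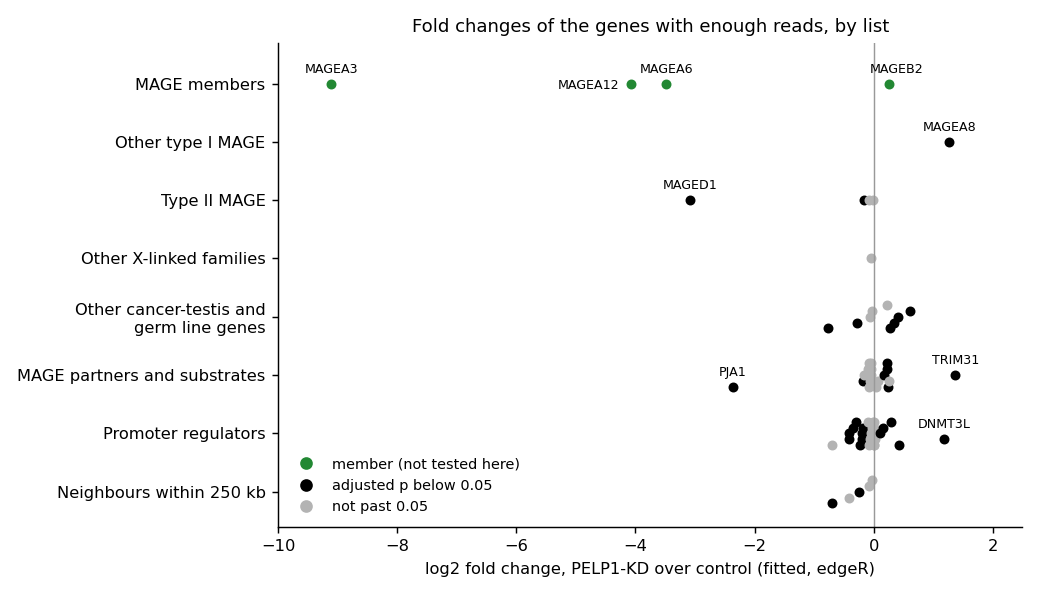
Fitted log2 fold change of PELP1-KD over control (x axis) for the tested genes of each list, with MAGE genes chosen on this comparison in green, other genes past an adjusted p of 0.05 in black and the rest in grey. MAGEA3, MAGEA12 and MAGEA6 lie at -9.11, -4.08 and -3.48, MAGED1 at -3.08 and PJA1 at -2.36, and most other genes lie close to 0.

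Genes of other kinds lie around MAGEA3, MAGEA6, MAGEA12 and MAGEA1 on the long arm of the X chromosome. Of 5 tested neighbours whose lowest base lies within 250 kb of that of 1 of the 9 genes, 0 were higher and 2 lower, beside 26.8% of all tested genes in each direction, with a median of -0.25. CETN2, a centriole protein 61.22 kb from MAGEA3, had 977, 922 and 989 reads in control and 762, 669 and 735 in PELP1-KD and fell by 0.25 (SE 0.06, adjusted p = 0.00107). ZNF275, 118.1 kb from MAGEA1, fell by 0.70 (SE 0.10, adjusted p = 7.07e-06). NSDHL, an enzyme of cholesterol synthesis 64.86 kb from MAGEA3, had a log2 fold change of -0.02 (SE 0.04, adjusted p = 0.71), ZNF185 of -0.41 (SE 0.30, adjusted p = 0.259) and HAUS7 of -0.07 (SE 0.08, adjusted p = 0.429). The 5 neighbours stood at 61.33% to 98.56% of control, whereas MAGEA6 stood at 8.488% and MAGEA12 at 5.442%.

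Farther out, over 3000 kb on each side of MAGEA3, 62 genes that were neither MAGE genes nor of another cancer-testis family were tested. Of these, 7 were higher and 21 lower at an adjusted p below 0.05 (26.8% of all tested genes in each direction), and 6 were lower by at least 2-fold (4.79% of all tested genes), with a median of -0.07. RENBP, at 2.64, was the 1 gene higher by that much (2.85% of all tested genes). This region and the genes named from it were looked at after the values had been seen. BGN, the matrix proteoglycan biglycan, had 1015, 986 and 1105 reads in control and 25, 24 and 21 in PELP1-KD (log2 fold change -5.30, SE 0.11, adjusted p = 3.1e-18). PNMA3, a paraneoplastic antigen gene 290.1 kb from MAGEA3, had 288, 318 and 319 against 38, 48 and 59 (log2 fold change -2.50, SE 0.14, adjusted p = 6.9e-12). The other 4 were ARHGAP4, PLXNB3, MAMLD1 and L1CAM, at -2.55, -3.12, -1.97 and -1.75. Genes at log2 fold changes near 0 lay between them.

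**Figure D5:**
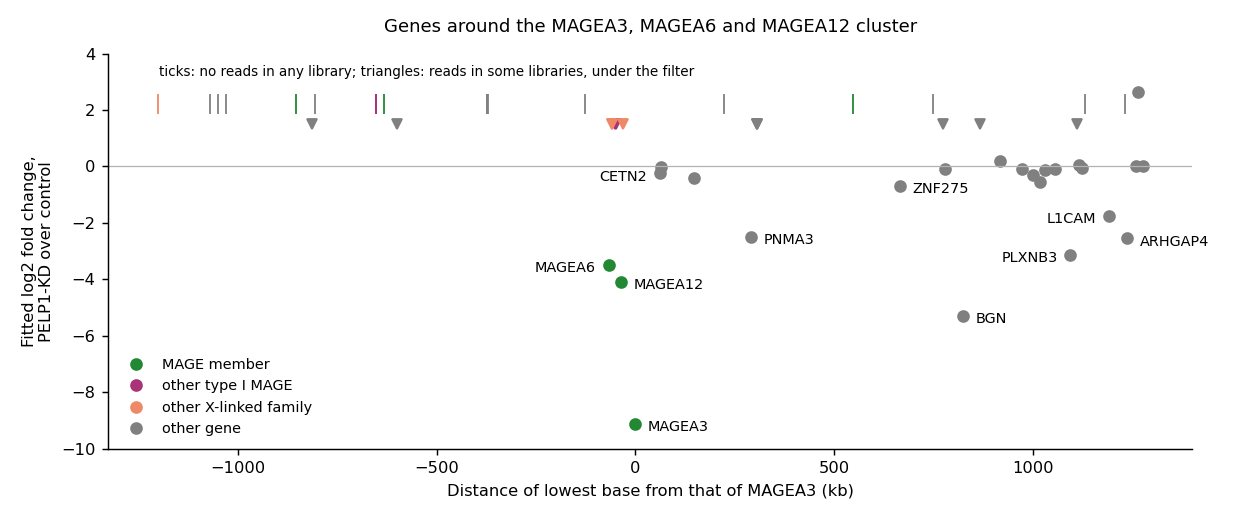
Fitted log2 fold change of PELP1-KD over control (y axis) against the distance from MAGEA3 in kb (x axis), with MAGE genes described here in green, other type I genes in purple, other X-linked families in orange and the rest in grey. Ticks at the top are genes with no reads and triangles are genes with too few reads for a fold change. MAGEA3, MAGEA6 and MAGEA12 lie below CETN2 at -0.25 and NSDHL at -0.02, with PNMA3 at -2.50 and BGN at -5.30 farther along.

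MAGE proteins act through partners, and 18 genes of ligases and substrates tied to them were tested, of which 5 were higher and 2 lower (26.8% of all tested genes in each direction), with a median of -0.04. PJA1, a RING ligase that binds MAGED1 and whose gene is also X-linked, had 108, 83 and 82 reads in control and 13, 17 and 17 in PELP1-KD (log2 fold change -2.36, SE 0.22, adjusted p = 2.95e-08). USP7, a deubiquitinase that joins MAGE and TRIM27 complexes, fell by 0.17 (SE 0.04, adjusted p = 0.00152). TRIM31, a ligase tied to MAGEA1, rose by 1.37 (SE 0.16, adjusted p = 0.000307), but its row has exons on alternative haplotypes and its reads are uncertain. HUWE1, a ligase tied to MAGEA11, rose by 0.17 (SE 0.03, adjusted p = 0.00017). TRIM28, the ligase of MAGEA3, MAGEA6 and MAGEC2, was at 276.3 ± 7.648 and 264.5 ± 16.89 RPKM (log2 fold change -0.06, SE 0.04, adjusted p = 0.177, or 0.00659 in the blocked fit), so that it exceeded MAGEA3 by far in control cells.

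Of 29 genes for DNA methylation, chromatin and the factors known at cancer-testis promoters, 27 were tested, 5 were higher and 8 lower, beside 26.8% of all tested genes in each direction, with a median of -0.02. DNMT1, which copies methylation at replication, fell by 0.41 (SE 0.04, adjusted p = 1.19e-08), as did its recruiter UHRF1 by 0.35 (SE 0.04, adjusted p = 8.76e-07) and the ETS factor GABPA by 0.41 (SE 0.07, adjusted p = 7.43e-05). DNMT3B, which sets new methylation, rose by 0.42 (SE 0.04, adjusted p = 8.32e-08), MBD1, a reader of methylated CpG, by 0.29 (SE 0.05, adjusted p = 1.83e-05), and DNMT3L, a cofactor of DNMT3A, by 1.19 (SE 0.31, adjusted p = 0.0032) from 18, 11 and 12 reads to 27, 19 and 38. CTCFL, a germ line paralog of CTCF that acts at MAGE promoters, was at 0. DNA methylation itself was not measured, and the part of these genes in the MAGE values was not tested.

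Over the 6 libraries, the genes outside all MAGE and cancer-testis lists whose levels most resembled the summed level of the 9 genes were GNAZ (Pearson's r = 0.9930 of log2 RPM), POP4 (0.9918), MUC13 (0.9897), ZNF786 (0.9876) and ZNF880 (0.9863), among 11757 genes that averaged 100 or more scaled reads. The sum was almost all MAGEB2, the 6 points fall in 2 groups, and all genes share the same libraries, so these values describe likeness to MAGEB2 only. Their log2 fold changes lay between 0.13 and 0.43, beside 0.26 for MAGEB2.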

How the data were processed

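RNA-seq of 3 control and 3 PELP1-KD libraries of Hep3B cells was analysed. The authors deposited estimated counts per gene, 1 table per library, without normalization. The file headers give featureCounts 1.5.0-p1 by strand on exons of the hg19 annotation, with a mapping quality of at least 2, and with reads of several places or genes kept as fractions. The submitters' processing notes name HISAT2, and the study's methods name TopHat2 and HTSeq. The labels and methods conflict on RNA extraction, library kit and single or paired reads.

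Estimated counts were rounded to whole numbers. Genes that passed filterByExpr were tested with edgeR 4.0.16 in R 4.3.3 (TMM, glmQLFit with robust estimation, glmQLFTest), with Benjamini-Hochberg adjustment over 14537 genes a cutoff of 0.05 on the adjusted p, and 2-fold where stated. SE was taken as the size of the log2 fold change divided by the root of F. RPKM used TMM-scaled library sizes. Intervals of ratios are exact binomial at 95%, and floors are 3 reads over a group. Both cover counting error only. Precision follows depth, with a common biological coefficient of variation of 4.04%. Sequences were read from GRCh37, and windows were aligned with Biopython 1.88 (best local alignment). The fit was tested on simulated counts.

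The 9 genes, the gene lists and the tests were chosen with earlier results of these data known. Named are all 9 genes, other type I rows with at least 10 reads, tested type II genes, the 3 called genes of smallest p in each direction of a list (marker lists are given by their sums only, and 1 partner gene is not reported here), tested neighbours within 250 kb, and the 5 genes most like the sum of the 9. CSAG1, CSAG2, CSAG3, MAGEE1, MAGEL2, NDN, TRIM28, CTCFL, TPTE and the genes within 3000 kb were named after their values had been seen. Over 6370 genes, deviations from the group mean in libraries of the same number had correlations of 0.3357, 0.2471 and 0.6655, so the numbers were treated as pairs in an alternative fit, although control replicate 2 with PELP1-KD replicate 1 had 0.4175. Replicates differed by more than sampling noise (chi-square per degree of freedom 1.94 to 7.02). Alternatives were other scalings, DESeq2 1.42.0, other filters, a prior count of 0.5, rounding down, the block, and each library left out.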

Additional observations from a re-analysis of the deposited data

How the results depend on the processing

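The log2 fold change of MAGEA3 was -8.46 with DESeq2, -7.11 with a prior count of 0.5 and -5.80 with MAGEA3 and MAGEA6 summed as 1, and that of MAGEA12 was -4.43 without PELP1-KD replicate 1. With the replicate block MAGEA3, MAGEA6, MAGEA12 and MAGEB2 were at -9.11, -3.49, -4.07 and 0.26. The log2 ratio of the summed reads of the 9 genes was -5.29 without MAGEB2 and also for MAGEA3, MAGEA6 and MAGEA12 alone, a setting added after the data had been seen, because MAGEB2 holds nearly all reads of the sum. Of the other X-linked families, 1 gene was called lower with DESeq2 (CSAG1) and 3 with no filter on low counts (CSAG1, CSAG2 and CSAG3), because more genes were tested. Of the type II genes, 1 to 3 were called with each library left out and 3 with no filter, where MAGEE1 passed the filter and was called lower, and the call of MAGEF1 was lost without control replicate 1 (-0.16) and without control replicate 3 (-0.14). Of all genes, 1112 were called at both thresholds, and 1113 with the replicate block, where 9 partner genes (7 without it) and 16 regulators (13 without it) were past an adjusted p of 0.05. With a library left out, 7 to 10 partner genes and 11 to 14 regulators were called, and the calls of DNMT3A, PCGF6, E2F6, ETS2 and TPTE were lost in at least 1 such fit. The share of all tested genes past 0.05 without the 2-fold cutoff is not given for these fits or the blocked fit. Nothing about the lists is therefore read from these counts. The numbers of called genes in the lists otherwise stayed within 1.5 times those reported. Depth limits the 5 genes at 0, and reads of copies limit MAGEA3 and MAGEA6.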
